A study of Mus musculus with 23 samples.

Results

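The enzymes examined here carry glucose carbon through glycolysis, into lactate or the mitochondrion, and around the tricarboxylic acid (TCA) cycle. They are 43 genes named by symbol, of 24421 rows in the count table. They were chosen for their function, but with earlier results of these data known. They comprise 15 glycolytic enzymes from hexokinase to pyruvate kinase, 2 lactate dehydrogenase subunits, 3 Pfkfb regulators, 2 subunits of the mitochondrial pyruvate carrier, 5 components of the pyruvate dehydrogenase (PDH) complex, 4 PDH kinases and 12 subunits of TCA cycle enzymes. On the mouse genome build mm10, 4 of them lie on the X chromosome (Pgk1, Pdha1, Pdk3 and Idh3g) and the others on autosomes. All 43 had a row, and all 43 passed the low-count filter that left 15475 genes to test.

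Glycolysis splits glucose into pyruvate in the cytosol. Pyruvate is then reduced to lactate by lactate dehydrogenase, or enters mitochondria through the carrier of Mpc1 and Mpc2 and is made into acetyl-CoA by the PDH complex, which the Pdk kinases switch off by phosphorylation. The TCA cycle oxidises acetyl-CoA and passes electrons to the respiratory chain, which needs oxygen and iron, both of which anemia can limit. When oxygen is scarce, the hypoxia-inducible factors (HIFs) are known to induce genes of glycolysis, Ldha and Pdk1. In the brain, Eno2 and Aldoc are classical enzymes of neurons and astrocytes respectively.

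Polyadenylated RNA of the hippocampus was sequenced from mouse pups on postnatal day 14. Pups with phlebotomy-induced anemia were bled 2 times a day at 5.25 µl per g of body weight from day 3, and once a day at 3.5 µl per g after they reached their goal. The hematocrit goal was 25% in the moderate group (mPIA) and 18% in the severe group (sPIA). Controls (NBC) were not bled and had only their nape pricked with a needle. There were 4 libraries per group in NBC, mPIA and sPIA females and in mPIA and sPIA males, and 3 in NBC males, each from a separate pup as far as the study's design text says. The sources used here do not give the strain, the litters or the hematocrit reached. RNA came from whole hippocampus, so fewer cells of a type and less RNA per cell cannot be told apart.

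Libraries held 15234793 to 26355712 counted reads, except 1 mPIA female library with 44362539. The 12 neuron markers summed to 13400 to 15800 CPM (counts scaled to the size of the library) across the libraries. No marker of the 8 cell type lists was at 0 in all libraries, and 7 of the 12 choroid plexus markers were at 0 in at least 1. Markers of the choroid plexus, a tissue beside the hippocampus, summed to between 19.5 and 4720 CPM, with the highest median, 2640 CPM, in NBC males. The library codes in the labels fall into series: those of NBC and mPIA females begin with a number, those of mPIA males with M, and those of NBC males and both sPIA groups with P. The codes end in an S number, which runs from 13 to 20 in all 8 sPIA libraries and from 38 to 55 in the other 15. The sources used here do not say what the codes or the S numbers stand for. Every difference of an sPIA group from an NBC or mPIA group therefore cannot be told apart from the S number. Those of sPIA females from NBC or mPIA females, of mPIA males from NBC or sPIA males, and of NBC females from NBC males cannot be told apart from the first letter of the code either, nor can the sex differences of the sPIA and mPIA effects.

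The members spanned a wide range of levels. Per kilobase of transcript and averaged over the 23 libraries, Aldoa, the aldolase that cleaves fructose bisphosphate, was highest at 702 CPM per kb. It was followed by the pyruvate kinase Pkm at 296, the cytosolic malate dehydrogenase Mdh1 at 295, the triosephosphate isomerase Tpi1 at 268 and the neuronal enolase Eno2 at 239 CPM per kb. The lowest were the inducible hexokinase Hk2 at 2.05 and the enolase Eno1 at 1.9 CPM per kb. The highest library divided by the lowest had a median of 1.34 over the members, and was under 1.5 for 34 of them. It passed 2 for only Eno1 (7.19), Gapdh (5.39) and Pfkfb4 (2.58).

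**Figure D1:**
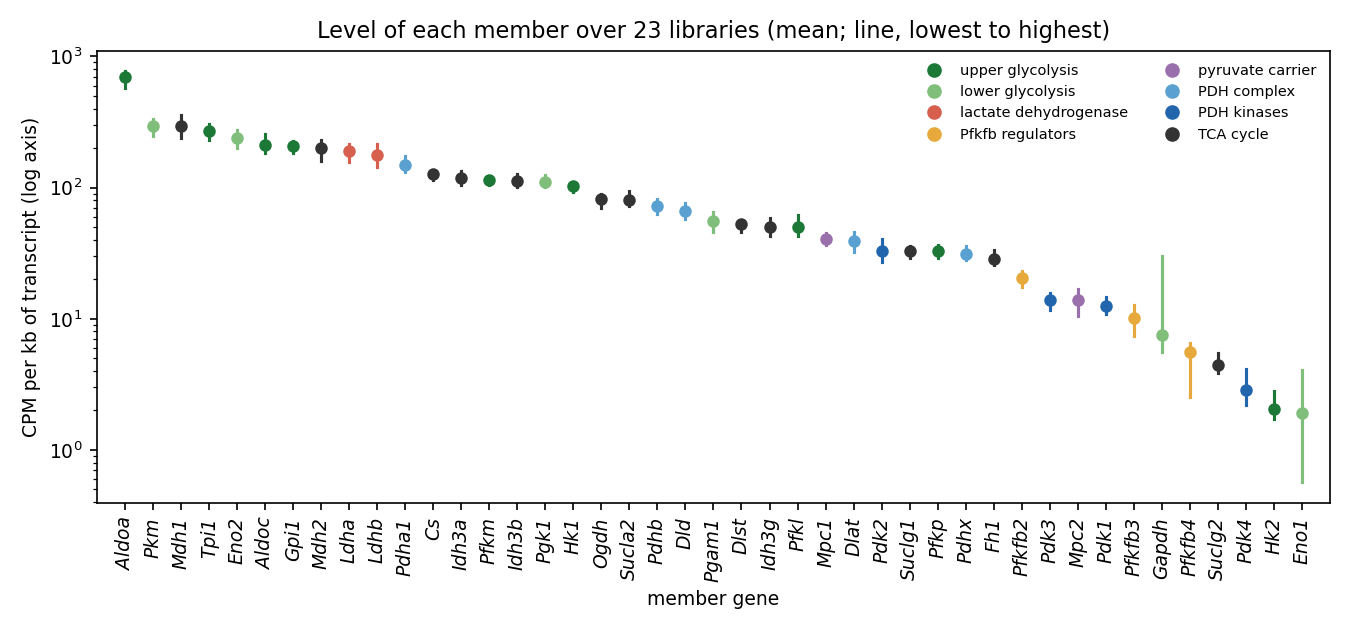
Level of each of the 43 members in CPM per kb of transcript (log axis), as the mean of 23 libraries (point) with the lowest and highest library (line), coloured by step of the pathway. Aldoa stands at 702 CPM per kb, and Eno1 and Gapdh show the longest lines.

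Eno1 and Gapdh, usually among the most abundant glycolytic messages, were low here and are uncertain. Both have near-identical copies elsewhere in the genome, and the sources used here do not say how reads that match several places were counted. Gapdh lay between 18.4 and 27.5 CPM in 22 libraries and at 99.2 CPM in NBC male 4. Eno1 had 22 to 304 counts per library, beside 39 to 859 counts on the row of its copy Eno1b and 10216 to 32129 counts for Eno2. Differences in Eno1 and Gapdh below are therefore differences in the counts kept for those rows.

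Within families the same isoform led per kb in all 6 groups, apart from lactate dehydrogenase. There Ldhb led in mPIA males only, with 51.7% (SD 2.34), and Ldha in the other groups. Hk1, the hexokinase that sits on brain mitochondria, made up 98% of the hexokinase level per kb (SD 0.256, n = 23 libraries). Pfkm, the muscle-type phosphofructokinase, made up 58.3%, the liver-type Pfkl 25.2% and the platelet-type Pfkp 16.5%. These shares depend on the transcript length used, which was 8.68 kb for Pfkp, 3.73 kb for Pfkl and 2.88 kb for Pfkm. Before division by length, Pfkp was above Pfkl in all 6 groups, with group means of 272 to 293 against 174 to 209 CPM. Ldha was likewise above Ldhb in all 6 groups before division, with group means of 325 to 366 against 197 to 250 CPM. Aldoa made up 76.9% of aldolase and Aldoc the other 23.1%. Among the kinases that inhibit PDH, Pdk2 held 53%, Pdk3 22.2%, Pdk1 20.3% and Pdk4 4.56%. Among the enzymes that make and break the sugar phosphate that most strongly activates phosphofructokinase, Pfkfb2 held 56.2%, Pfkfb3 28.3% and Pfkfb4 the rest.

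**Figure D2:**
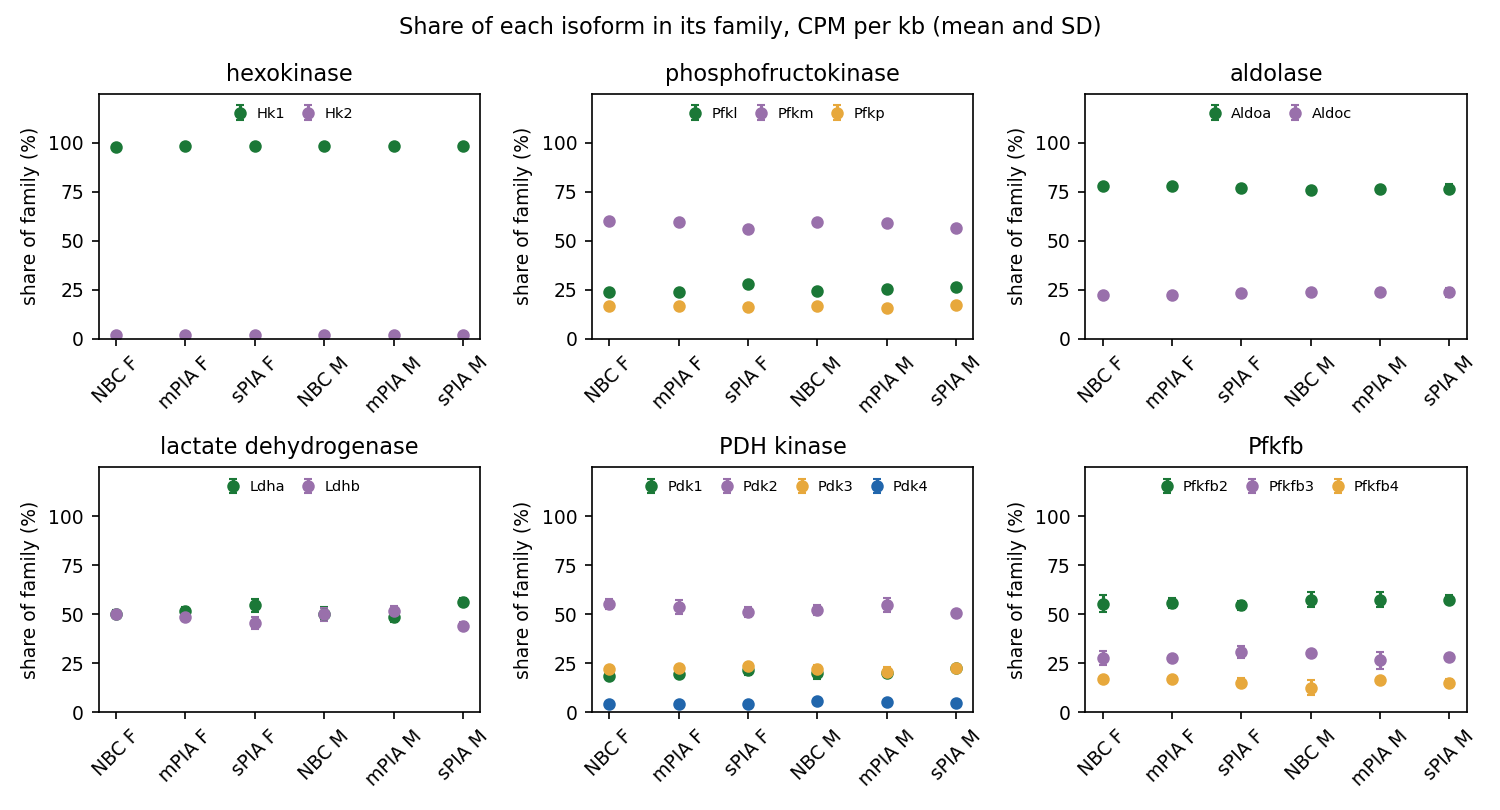
Share of each isoform in the summed CPM per kb of its family (%), as mean and SD of the 3 or 4 libraries in each of 6 groups (F, females; M, males). The mean share of Ldhb is 45.5% in sPIA females and 43.8% in sPIA males, and 48.6 to 51.7% in the other 4 groups.

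The promoters of 4 members are printed because they differ in the letters of the hypoxia response element and because the results turn on these genes. Ldha and Ldhb encode the subunits of lactate dehydrogenase, Dlat the E2 core of the PDH complex and Mdh1 the cytosolic malate dehydrogenase of the NADH shuttle. Each sequence runs 5′ to 3′ on the gene's strand from 250 bases before to 50 bases after the start in RefSeq (build GRCm38.p6). Capitals mark matches to the core ACGTG or GCGTG on either strand, where matches on both strands of CACGTG overlap. The windows are chr7:46845554-46845853 (plus strand) for Ldha, chr6:142507908-142508207 (minus) for Ldhb, chr9:50659731-50660030 (minus) for Dlat and chr11:21571885-21572184 (minus) for Mdh1.
Ldha: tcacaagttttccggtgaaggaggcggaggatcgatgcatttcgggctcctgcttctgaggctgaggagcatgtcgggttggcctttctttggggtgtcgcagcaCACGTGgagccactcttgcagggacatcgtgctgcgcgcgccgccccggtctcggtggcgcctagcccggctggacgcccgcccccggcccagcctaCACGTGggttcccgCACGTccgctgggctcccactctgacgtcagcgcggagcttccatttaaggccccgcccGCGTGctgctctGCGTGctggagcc
Ldhb: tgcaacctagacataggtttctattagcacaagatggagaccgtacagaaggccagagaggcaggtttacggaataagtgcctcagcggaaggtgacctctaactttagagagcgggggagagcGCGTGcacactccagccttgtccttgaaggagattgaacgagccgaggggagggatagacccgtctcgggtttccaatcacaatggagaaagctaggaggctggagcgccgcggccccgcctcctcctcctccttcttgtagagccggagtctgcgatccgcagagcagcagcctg
Dlat: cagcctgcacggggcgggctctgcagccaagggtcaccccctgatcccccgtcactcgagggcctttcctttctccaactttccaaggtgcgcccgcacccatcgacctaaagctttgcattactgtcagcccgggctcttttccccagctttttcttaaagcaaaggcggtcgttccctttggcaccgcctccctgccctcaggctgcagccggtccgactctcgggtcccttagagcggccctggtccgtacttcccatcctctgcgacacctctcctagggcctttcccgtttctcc
Mdh1: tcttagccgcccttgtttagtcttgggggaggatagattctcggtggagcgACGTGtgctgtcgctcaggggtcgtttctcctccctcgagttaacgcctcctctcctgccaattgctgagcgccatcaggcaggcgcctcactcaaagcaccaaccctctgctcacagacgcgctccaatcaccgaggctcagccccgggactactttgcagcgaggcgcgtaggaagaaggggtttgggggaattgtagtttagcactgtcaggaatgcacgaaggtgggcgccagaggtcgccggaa

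The Ldha window held 7 matches in 5 separate runs, with 2 CACGTG among them. Those of Ldhb and Mdh1 held 1 match each, and that of Dlat held 0. Of the 42 members with a promoter window in the RefSeq table, 29 (69%) held at least 1 match, against 43.8% of all 32851 windows of the same length. At least 3 matches stood in 10 members (23.8%) and in 8.93% of all windows. A match is a description of the letters only, and no binding was measured.

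Severe anemia in females was the comparison with NBC in which members passed the test. In sPIA females 9 of 43 members (20.9%) differed from NBC females at an adjusted p under 0.05 (edgeR quasi-likelihood test, Benjamini-Hochberg over all genes tested), where 16% of all genes did. Of these, 7 fell and 2 rose, where 7.86% of all genes fell and 8.12% rose: Mdh1, Eno1, Mdh2, Ldhb, Idh3g, Tpi1 and Eno2 were lower, and Dlat and Pfkl were higher. The changes were small, from a fall to 0.495-fold for Eno1 and 0.791-fold for Mdh1 to a rise of 1.2-fold for Pfkl. Over all 43 members the median log2 change was -0.04, against -0.0001 over all genes tested. The groups did not overlap for 11 members (25.6%), 9 lower and 2 higher, and for 21% of all genes. Anemia, the first letter of the library code and the S number cannot be told apart in this comparison. The values of sPIA females beside NBC males, who differ from them in sex, anemia and S number, are given further on.

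**Figure D3:**
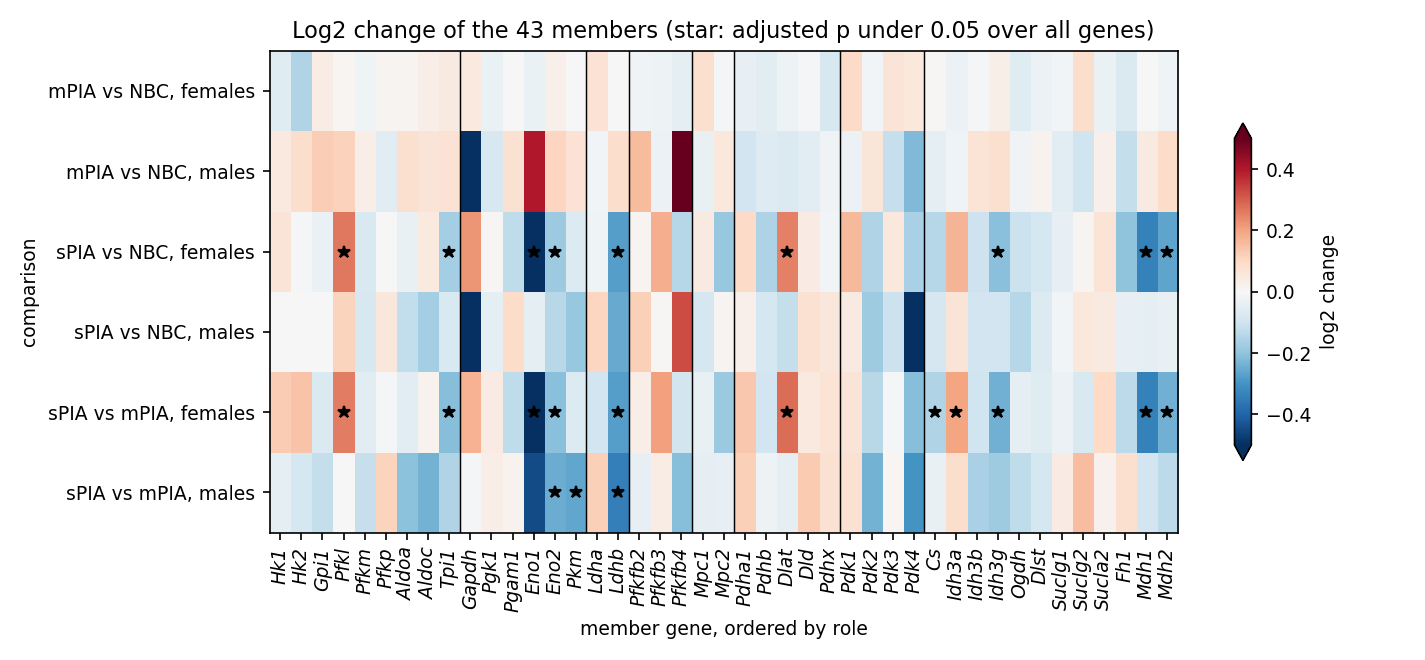
Log2 change of each of the 43 members (columns, ordered by role) in 6 comparisons (rows), red for higher and blue for lower, with colours saturated beyond 0.5 in size; a star marks an adjusted p under 0.05 over all genes tested. Stars stand on 9 members for sPIA against NBC females, 11 for sPIA against mPIA females and 3 for sPIA against mPIA males.

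Among the 9 genes of upper glycolysis, 1 rose and 1 fell. Pfkl (chr10:77986947-78010083, mm10), a subunit of the phosphofructokinase that commits sugar to glycolysis, had 233, 194, 200 and 210 CPM in the 4 sPIA female libraries and 178, 196, 158 and 163 CPM in NBC females. NBC female 2 lay within the sPIA range and the other 3 controls below it. The log2 change was 0.27 (SE 0.08, adjusted p = 0.0214 in edgeR), and its share of phosphofructokinase was 27.9% ± 1.08 (SD, n = 4) against 23.6% ± 1.3 (SD, n = 4). Without NBC female 3, NBC female 4 or sPIA female 1 the call was lost, with an adjusted p of up to 0.0726. Tpi1, which interconverts the triose phosphates, had 410, 389, 426 and 410 CPM in sPIA females and 456, 493, 438 and 451 CPM in NBC females, with all sPIA libraries below. Its log2 change was -0.17 (SE 0.06, adjusted p = 0.0439 in edgeR), and it lost the call without any 1 of the 8 libraries (adjusted p 0.0585 to 0.207).

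In lower glycolysis 2 of 6 genes fell, both enolases. Eno2, the neuronal enolase, had 679, 573, 600 and 617 CPM in sPIA females and 710, 722, 707 and 665 CPM in NBC females. In this gene sPIA female 1 lay among the controls and the other 3 sPIA libraries lay below all of them. The log2 change was -0.18 (SE 0.06, adjusted p = 0.0474 in edgeR), and the call was lost when any library other than sPIA female 1 was left out (adjusted p up to 0.178). Eno1 had 3.61, 2.85, 3.55 and 2.75 CPM in sPIA females and 8.28, 5.39, 6.5 and 5.66 CPM in NBC females, with no overlap. The log2 change of -1.02 (SE 0.22, adjusted p = 0.00276 in edgeR) rests on the row whose counts are uncertain. Pkm, which makes pyruvate, had 738, 673, 748 and 689 CPM against 770, 790, 711 and 713 CPM, a log2 difference of -0.07 (adjusted p = 0.448 in edgeR).

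At the branch between lactate and the mitochondrion, Ldhb fell and Ldha did not pass. Ldhb (chr6:142490249-142507957, mm10), the subunit typical of tissues that oxidise lactate, had 218, 210, 196 and 198 CPM in sPIA females and 255, 241, 243 and 256 CPM in NBC females. All 4 sPIA libraries lay below all controls. The log2 change was -0.27 (SE 0.07, adjusted p = 0.00855 in edgeR) and stayed past the threshold when each library was left out (adjusted p up to 0.0408). Ldha, the HIF-inducible subunit whose promoter carried the 5 runs of the core, had 324, 317, 385 and 345 CPM in sPIA females and 339, 377, 339 and 339 CPM in NBC females. The groups overlapped, and the log2 difference was -0.02 (SE 0.07, adjusted p = 0.875 in edgeR).

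**Figure D4:**
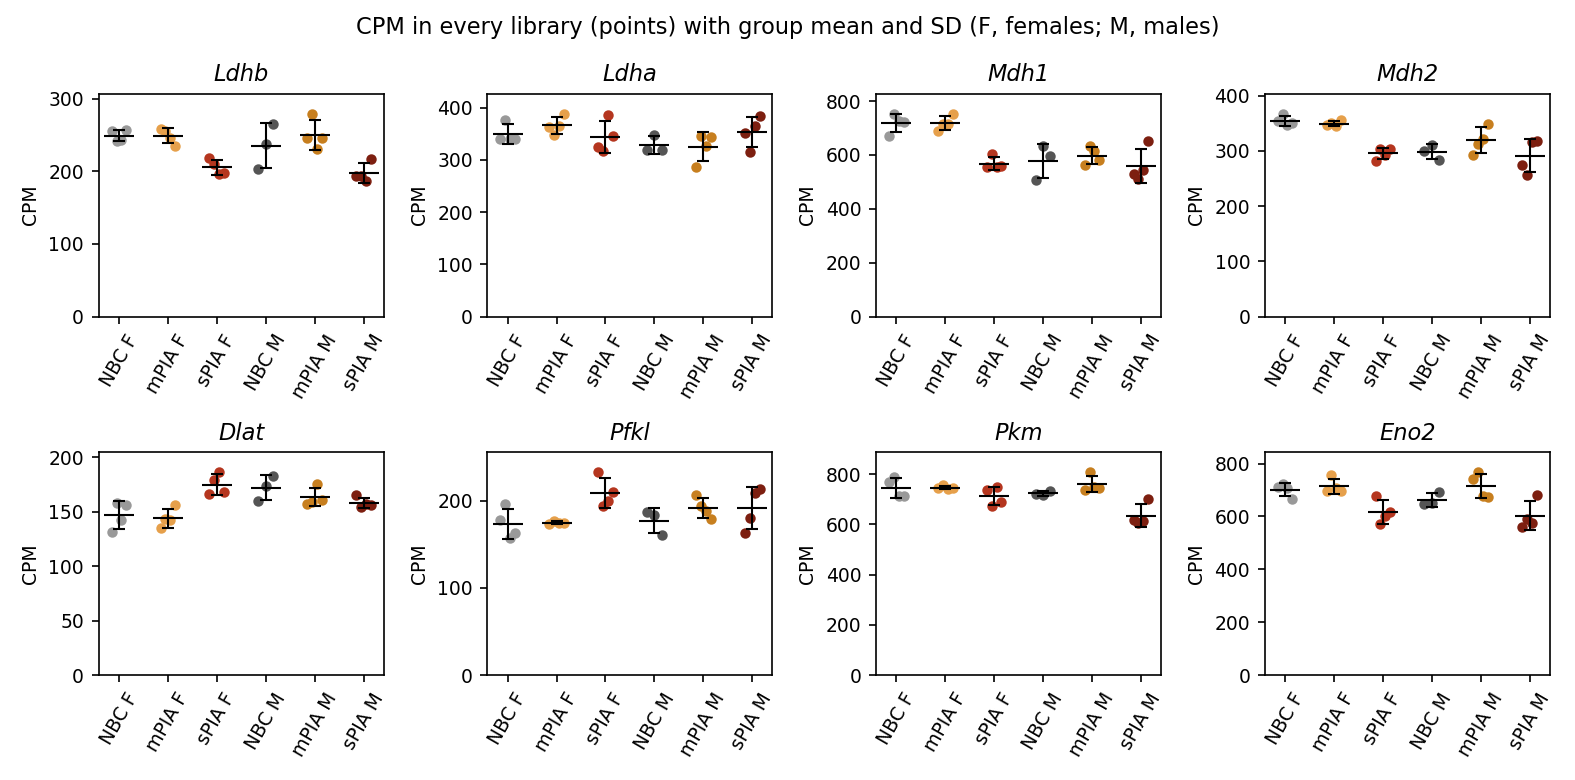
CPM of 8 members in every library (points) with the group mean and SD (black; n = 3 or 4; F, females; M, males). Ldhb is lower in both sPIA groups than in the mPIA groups of the same sex, whereas the Mdh1 and Mdh2 ranges of sPIA females overlap those of all 3 male groups. Dlat of sPIA females (166 to 186 CPM) lies above that of sPIA males (154 to 165 CPM).

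Of the PDH complex 1 of 5 genes rose. Dlat (chr9:50634633-50659780, mm10) had 166, 179, 186 and 168 CPM in sPIA females and 131, 158, 142 and 156 CPM in NBC females, so all sPIA libraries lay above. Its log2 change was 0.25 (SE 0.06, adjusted p = 0.00748 in edgeR), and it held when each library was left out (adjusted p up to 0.0434). Pdhb, a subunit of the E1 enzyme of the same complex, lay below NBC in all 4 sPIA libraries with a log2 difference of -0.15 (adjusted p = 0.0729 in edgeR). The other 3 components, Pdha1, Dld and Pdhx, differed by between -0.01 and 0.10.

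The 12 genes listed with the TCA cycle gave 3 falls, in the 2 malate dehydrogenases and in a regulatory subunit of isocitrate dehydrogenase. Of these, Mdh1 encodes the cytosolic enzyme of the NADH shuttle and not a step of the cycle in mitochondria. Mdh1 (chr11:21556787-21572367, mm10) had 554, 602, 557 and 558 CPM in sPIA females and 671, 751, 726 and 721 CPM in NBC females. Mdh2 (chr5:135778480-135790398), the mitochondrial enzyme that regenerates oxaloacetate, had 282, 303, 293 and 304 CPM against 354, 367, 347 and 350 CPM. Neither gene's groups overlapped. The log2 changes were -0.34 for Mdh1 (SE 0.07, adjusted p = 0.00166) and -0.26 for Mdh2 (SE 0.06, adjusted p = 0.00533), and both held in edgeR when each library was left out. Idh3g (chrX:73778963-73786897) had 106, 100, 90.7 and 99.6 CPM in sPIA females and 122, 117, 108 and 113 CPM in NBC females, again with no overlap. Its log2 change was -0.21 (SE 0.06, adjusted p = 0.0150 in edgeR), and the call was lost without NBC female 1, NBC female 2 or sPIA female 3 (adjusted p up to 0.0917).

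Other TCA genes came close to the threshold without passing it. Citrate synthase (Cs), which lets acetyl-CoA into the cycle, had 369, 378, 343 and 360 CPM in sPIA females and 412, 405, 401 and 384 CPM in NBC females. No libraries overlapped, at a log2 difference of -0.14 (adjusted p = 0.0568 in edgeR). The catalytic subunit gene Idh3a had 310, 342, 340 and 305 CPM against 272, 308, 278 and 296 CPM, a difference of 0.17 in the opposite direction to Idh3g (adjusted p = 0.0575). Fumarase (Fh1) differed by -0.20 (adjusted p = 0.0557) and was lower in all sPIA libraries. Ogdh, which decarboxylates alpha-ketoglutarate, had 325, 341, 290 and 330 CPM against 362, 345, 356 and 322 CPM, with overlap (adjusted p = 0.207 in edgeR).

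Of the members at points of entry or control, Pdk1, Pfkfb3, Hk2 and Mpc1 did not pass in sPIA females. Pdk1 had 61.7, 65, 70.2 and 72.3 CPM in sPIA females and 56.7, 63.6, 60.1 and 60 CPM in NBC females, with a log2 difference of 0.16 (adjusted p = 0.133 in edgeR). Pfkfb3, the isoform that favours glycolysis, had 61.6, 47.3, 52.8 and 55.2 CPM against 46.3, 55.2, 44.5 and 45.4 CPM (log2 difference 0.18, adjusted p = 0.249). Both genes' groups overlapped. Hk2 had 10.1, 9.57, 13.7 and 11.8 CPM against 10, 11.8, 11 and 12.6 CPM (log2 difference -0.01, adjusted p = 0.984). Mpc1 had 39.3, 40.2, 37.3 and 35 CPM against 35.9, 36.6, 37.7 and 37 CPM (log2 difference 0.04, adjusted p = 0.73). The ranges of Hk2 and Mpc1 in the sPIA and control libraries overlapped too.

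Several of these calls depended on the correction for transcript composition. With a trend on GC content and transcript length removed, 6 members passed in sPIA females, 3 higher and 3 lower. The share of all genes that passed in that fit is not given here. Pfkl (log2 change 0.42, adjusted p = 0.000171), Mdh1 (-0.36, adjusted p = 0.00135), Eno1 (-0.81, adjusted p = 0.0189) and Dlat (0.21, adjusted p = 0.0246) passed in that edgeR fit, and so did Hk1 (0.20, adjusted p = 0.0158) and Mpc2 (-0.31, adjusted p = 0.0144), which had not passed before. The others of the 9 did not: Idh3g (-0.14, adjusted p = 0.12), Mdh2 (-0.17, adjusted p = 0.113), Ldhb (-0.13, adjusted p = 0.292), Eno2 (-0.04, adjusted p = 0.782) and Tpi1 (-0.02, adjusted p = 0.896). Marker genes also differed between these groups. The 12 astrocyte markers summed to 6500 to 7840 CPM in sPIA females and 6040 to 6230 CPM in NBC females, and the 10 endothelial markers to 304 to 351 against 259 to 278 CPM. The 12 neuron markers summed to 14200 to 15800 against 13600 to 14900 CPM. Single markers went both ways. Of the astrocyte markers 4 were called higher and 1 lower (median log2 change 0.061), and of the neuron markers 2 higher and 1 lower. Of the endothelial markers 2 were called higher and 0 lower, where 8.12% of all genes were higher and 7.86% lower. The part of these cell types in the members' changes was not tested.

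Against mPIA females, which share the code series of NBC females, sPIA females differed in 11 of 43 members (25.6%), where 16.1% of all genes differed. There were 8 falls and 3 rises, where 7.48% of all genes fell and 8.67% rose. The 9 members above passed again, with log2 changes between -0.98 for Eno1 and 0.28 for Dlat. Cs had 399, 406, 400 and 404 CPM in mPIA females, above all sPIA libraries, and fell by 0.15 on the log2 scale (SE 0.05, adjusted p = 0.0464 in edgeR). Idh3a had 268, 276, 277 and 310 CPM in mPIA females and rose by 0.20 (SE 0.06, adjusted p = 0.0252 in edgeR), with mPIA female 4 inside the sPIA range. The Cs call was lost without any 1 of 7 of the 8 libraries, all but sPIA female 1 (adjusted p up to 0.189), and that of Idh3a without mPIA female 1, 2 or 3 or sPIA female 2 or 3 (adjusted p up to 0.0871). Of the others, Pfkl lost the call without mPIA female 1 or sPIA female 1, Tpi1 without sPIA female 2, and Eno2 without mPIA female 2 or 3 or sPIA female 2, 3 or 4 (adjusted p up to 0.102). With the GC and length trend removed, 7 of the 11 calls were lost and Pfkl, Dlat, Eno1 and Mdh1 kept theirs. The lost calls were those of Tpi1 (-0.06, adjusted p = 0.647), Eno2 (-0.07, adjusted p = 0.588), Ldhb (-0.12, adjusted p = 0.325), Mdh2 (-0.14, adjusted p = 0.207), Cs (-0.15, adjusted p = 0.0763), Idh3g (-0.16, adjusted p = 0.0569) and Idh3a (0.18, adjusted p = 0.0526). Hk1 (0.26, adjusted p = 0.00169) and Mpc2 (-0.31, adjusted p = 0.0125) passed in that edgeR fit and not before, which made 6 called members, 3 in each direction. Both comparisons with sPIA females use the same sPIA libraries, so their likeness is not a second result.

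In females with moderate anemia, whose library codes share a series with those of NBC females, 0 members passed against NBC by edgeR, where 0.00646% of all genes (1 gene) did. The number at an unadjusted p under 0.05 was also 0, against 0.355% of all genes, and DESeq2 called 0 members. That share of all genes is itself far below the 0.05 that p-values would give without any difference. The edgeR test was therefore strict in this comparison, and 0 members does not show that the members were unchanged. Differences ran from -0.15 for Hk2 to 0.10 for Pdk1 on the log2 scale, with a median standard error of 0.07. The 2 groups overlapped in all 43 members, and did not in 1.54% of all genes. Ldha had 363, 348, 365 and 388 CPM in mPIA females, Ldhb 258, 255, 246 and 235 CPM, Mdh1 690, 716, 715 and 753 CPM, Mdh2 346, 351, 344 and 355 CPM, and Dlat 135, 143, 142 and 156 CPM. These ranges overlapped those of the NBC females given above.

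In males 0 members passed by edgeR in sPIA against NBC, where 0.194% of all genes did, and 6 members (14%) had an unadjusted p under 0.05, against 12.1% of all genes. DESeq2 also called 0 members. The groups did not overlap for 2 members (4.65%), both lower, and for 6.31% of all genes. Ldhb had 193, 194, 186 and 217 CPM in sPIA males and 203, 237 and 265 CPM in NBC males. Only sPIA male 4 lay within the control range, and the log2 difference of -0.25 had an adjusted p of 0.155 in edgeR. Pkm had 619, 604, 613 and 702 CPM in sPIA males and 720, 716 and 733 CPM in NBC males, with no overlap and a log2 difference of -0.19 (adjusted p = 0.179). Pdk4, a kinase known to rise on fasting, was also lower in all sPIA male libraries (log2 difference -0.52, adjusted p = 0.16). Leaving out NBC male 2 gave 2 called members and leaving out NBC male 3 gave 1, all lower. The share of all genes called in those fits is not given here.

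Neither malate dehydrogenase, nor Dlat or Ldha, passed between these males. Mdh1 had 529, 510, 543 and 653 CPM in sPIA males and 508, 632 and 595 CPM in NBC males (log2 difference -0.05, SE 0.08). Mdh2 had 275, 257, 316 and 317 CPM against 300, 311 and 284 CPM (-0.04, SE 0.07). Dlat had 165, 154, 157 and 156 CPM against 160, 173 and 183 CPM (-0.12, SE 0.07). All 3 genes overlapped between the groups. Ldha had 352, 314, 364 and 383 CPM in sPIA males and 318, 348 and 319 CPM in NBC males, also with overlap (log2 difference 0.11, SE 0.08, adjusted p = 0.618 in edgeR).

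Moderate anemia in males also gave 0 members by edgeR, where 0.653% of all genes passed. At an unadjusted p under 0.05 there were 2 members (4.65%), Gapdh and Pfkfb4, against 16% of all genes, and DESeq2 called 1 member, lower. In both genes NBC male 4 stood apart, with the highest Gapdh (99.2 CPM) and the lowest Pfkfb4 (8.9 CPM) of all 23 libraries. Without it the log2 difference went from -1.16 to -0.14 for Gapdh and from 0.54 to 0.27 for Pfkfb4. In Pkm, Pfkfb2, Pfkfb4 and Idh3g all mPIA males lay above all NBC males, a share of 9.3% against 9.8% of all genes that did not overlap. Leaving out NBC male 2 gave 2 called members and leaving out NBC male 3 gave 1, again without the share of all genes in those fits.

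Between severe and moderate anemia in males, 3 members (6.98%) fell and 0 rose, where 4.92% of all genes differed (2.8% lower and 2.13% higher). Ldhb had 245, 279, 231 and 245 CPM in mPIA males, above all 4 sPIA males, and fell by 0.34 on the log2 scale (SE 0.07, adjusted p = 0.00787 in edgeR). Pkm had 738, 807, 750 and 744 CPM in mPIA males, again with no overlap, and fell by 0.26 (SE 0.05, adjusted p = 0.00888). Eno2 had 740, 767, 679 and 673 CPM in mPIA males and 560, 591, 575 and 682 CPM in sPIA males, and fell by 0.25 (SE 0.06, adjusted p = 0.0252). For Eno2 sPIA male 4 lay within the mPIA range, and the call was lost without mPIA male 1, mPIA male 2, or sPIA male 1, 2 or 3 (adjusted p up to 0.104). Without sPIA male 4, 7 members were called, all lower, and the share of all genes in that fit is not given here. The first letter of the code and the S number differ between these groups too. With the GC and length trend removed Pkm (-0.13, adjusted p = 0.306) and Eno2 (-0.17, adjusted p = 0.152) did not pass, Ldhb did, and Idh3b (-0.21, adjusted p = 0.0394) passed where it had not before (adjusted p = 0.0627).

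The members at points of entry or control did not pass in mPIA females or in either anemic group of males against NBC, nor between sPIA and mPIA males. Hk2 had 11.2, 10.3, 9.82 and 9.48 CPM in mPIA females, 12.7, 9.95 and 11.8 CPM in NBC males, 13.6, 11.4, 12 and 11.7 CPM in mPIA males and 10.4, 9.97, 15.4 and 10.1 CPM in sPIA males. Pfkfb3 had 46.4, 47.8, 49.4 and 44.1 CPM in mPIA females, 54.3, 45.4 and 46 CPM in NBC males, 49, 35.4, 55.2 and 50.3 CPM in mPIA males and 48.4, 46.6, 50.3 and 49.7 CPM in sPIA males. In Hk2 sPIA male 3 and in Pfkfb3 mPIA male 2 stood apart from their groups, and the ranges of the groups compared overlapped in both genes. Pdk1 had 65.7, 60.1, 62.3 and 69.4 CPM in mPIA females, 62.6, 61.5 and 75.7 CPM in NBC males, 63.5, 70.7, 65.7 and 60.6 CPM in mPIA males and 67.9, 66.7, 67.6 and 72.6 CPM in sPIA males. Mpc1 had 39.5, 37.2, 39.5 and 39.3 CPM in mPIA females, 43.5, 41.7 and 38.9 CPM in NBC males, 38.9, 42.6 and 42.3 CPM in mPIA males 2, 3 and 4 (lower in mPIA male 1) and 39, 36.4, 40.4 and 40.4 CPM in sPIA males. NBC male 4 was highest of the NBC males in Pdk1 and lowest in Mpc1, and the groups compared overlapped in both. Ogdh had 335, 345, 337 and 313 CPM in mPIA females, 371, 363 and 349 CPM in NBC males, 342, 360, 361 and 366 CPM in mPIA males and 313, 320, 326 and 351 CPM in sPIA males. Cs had 399, 393 and 386 CPM in NBC males, 354, 381, 388 and 397 CPM in mPIA males and 364, 346, 378 and 394 CPM in sPIA males. Ldha had 286, 346, 326 and 343 CPM in mPIA males. In these 3 genes too the male groups overlapped one another.

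The remaining libraries of the members called in females are given by step of the pathway. Pfkl had 174, 177, 175 and 175 CPM in mPIA females, 187, 184 and 161 CPM in NBC males, 207, 194, 188 and 179 CPM in mPIA males and 163, 181, 209 and 214 CPM in sPIA males. Tpi1 had 473, 473, 469 and 481 CPM in mPIA females, 407, 433 and 392 CPM in NBC males, 420, 465, 418 and 427 CPM in mPIA males and 380, 375, 369 and 434 CPM in sPIA males. All mPIA females lay below all sPIA females for Pfkl and above them for Tpi1, while the male groups overlapped. Eno2 had 698, 756, 706 and 697 CPM in mPIA females and 646, 649 and 693 CPM in NBC males. Eno1 had 5.97, 5.94, 6.68 and 6.58 CPM in mPIA females, 2.32, 2.56 and 1.15 CPM in NBC males, 2.98, 2.17, 3.43 and 2.13 CPM in mPIA males and 1.61, 1.52, 2.18 and 2.57 CPM in sPIA males. Pkm had 743, 756, 740 and 746 CPM in mPIA females. The Eno1 row was above 5 CPM in every NBC and mPIA female and below 4 CPM in all other libraries.

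Among the members listed with the PDH complex and the TCA cycle, Idh3g had 122, 121, 114 and 111 CPM in mPIA females and 94.9, 102 and 101 CPM in NBC males. It had 108, 104, 104 and 104 CPM in mPIA males and 89.3, 88.1, 93.5 and 101 CPM in sPIA males. Idh3a, the catalytic subunit, had 311, 312 and 310 CPM in NBC males, 287, 333, 301 and 306 CPM in mPIA males and 341, 303, 334 and 324 CPM in sPIA males. For Idh3g all sPIA males lay below all mPIA males, a log2 difference of -0.18 that did not pass (adjusted p = 0.0744 in edgeR), and for Idh3a the male groups overlapped. In mPIA males Mdh1 had 561, 633, 614 and 581 CPM, Mdh2 292, 313, 321 and 349 CPM and Dlat 157, 159, 175 and 161 CPM. These overlapped both other male groups.

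Ldhb was called against mPIA in both sexes, though in females not with the GC and length trend removed, where its log2 change went from -0.27 to -0.12 (adjusted p = 0.325 in edgeR). Its mean share of lactate dehydrogenase per kb was lower in the sPIA groups than in the other 4. That share was 45.5% ± 3.22 in sPIA females, 48.6% ± 2.05 in mPIA females and 49.8% ± 1.94 in NBC females (SD, n = 4 each). In males it was 43.8% ± 1.97 in sPIA (SD, n = 4), 51.7% ± 2.34 in mPIA (SD, n = 4) and 49.8% ± 3.46 in NBC (SD, n = 3). The sPIA males (41.5 to 46.3%) lay below all other males, while sPIA females (41.5 to 48.3%) overlapped both other female groups. The difference between the sexes in the sPIA effect on Ldhb was -0.02 on the log2 scale (SE 0.10, adjusted p = 0.938 in edgeR).

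That test of the sex difference itself was passed by 1 member (2.33%), where 0.95% of all genes passed (0.601% with the more positive effect in females and 0.349% in males). For Dlat the sPIA effect was 0.25 in females and -0.12 in males, a difference of 0.37 (SE 0.09, adjusted p = 0.0477 in edgeR). The call was lost in 10 of 15 fits that left out 1 library (adjusted p up to 0.117): without NBC male 3 or 4, NBC female 1 or 3, sPIA male 2, 3 or 4, or sPIA female 2, 3 or 4. It was also lost under 6 of 8 other alternatives, among them the GC and length trend and the choroid plexus score (difference 0.32, adjusted p = 0.144). In females the sPIA effect crosses the first letter of the code and in males it does not, so sex and code cannot be told apart here. For Mdh1 the difference was -0.29 (SE 0.10, adjusted p = 0.156) and for Mdh2 -0.23 (SE 0.09, adjusted p = 0.217). For the mPIA effect 0 members passed, 0 genes of all passed (0% of all genes), and 2 members (4.65%) had an unadjusted p under 0.05, against 7.13% of all genes. DESeq2 also called 0 members for the mPIA effect.

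The controls of the 2 sexes differed in 8 members (18.6%), where 10.1% of all genes differed. There were 6 higher and 2 lower in females, where 4.66% of all genes were higher and 5.49% lower. Eno1 (log2 difference 1.67), Pfkfb4 (0.53), Mdh1 (0.31), Mpc2 (0.29), Mdh2 (0.25) and Idh3g (0.21) were higher in NBC females, and Gapdh (-1.35) and Dlat (-0.23) were lower. Without NBC male 4, whose Gapdh was 99.2 CPM against 27.5 and 20.8 CPM in the other NBC males and whose Pfkfb4 was 8.9 against 17.8 and 17.6 CPM, the difference was -0.34 for Gapdh (adjusted p = 0.107 in edgeR) and 0.27 for Pfkfb4 (adjusted p = 0.269). Mdh1 had 671, 751, 726 and 721 CPM in NBC females and 508, 632 and 595 CPM in NBC males, with no overlap (adjusted p = 0.012 in edgeR). Mdh1 lost the call without NBC male 2 (adjusted p = 0.0708), and of the 7 fits that left out 1 library Dlat lost it in 4, Mdh2 in 3 and Idh3g in 6. Mpc2 lost the call without NBC male 4 (log2 difference 0.34, adjusted p = 0.0516 in edgeR), and its other fits of this kind are not given here. Fits that left out 1 library gave 2 to 8 called members, with 2 each without NBC male 4 and without NBC female 1, 4 without NBC female 2, and 5 each without NBC male 2 and without NBC female 4. Marker genes differed between the controls as well. The 12 astrocyte markers summed to 6040 to 6230 CPM in NBC females and 7170 to 8180 CPM in NBC males, with 4 of them called lower in females and 0 higher. The choroid plexus markers summed to 45.6 to 2130 CPM (median 64.7) in NBC females and 21.9 to 4720 CPM (median 2640) in NBC males. With a choroid plexus score in the edgeR fit Eno1, Mpc2, Mdh1 and Idh3g passed, while Gapdh (adjusted p = 0.104), Pfkfb4 (0.0881), Dlat (0.127) and Mdh2 (0.0618) did not. The part of the astrocytes was not tested.

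Between sPIA females and sPIA males 0 members passed by edgeR, where 0.0517% of all genes did, and 5 (11.6%) had an unadjusted p under 0.05, against 7.64% of all genes. Among these 5 was Dlat, with 166 to 186 CPM in sPIA females, above the 154 to 165 CPM of sPIA males (log2 difference 0.14, adjusted p = 0.621).

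Against NBC males, whose library codes begin with the same letter, 0 members of sPIA females passed by edgeR, where 0.0905% of all genes did. This comparison was added after the data were seen, and in it sex, anemia and S number differ together. There were 8 members (18.6%) at an unadjusted p under 0.05, against 10.3% of all genes. The log2 difference was -0.03 for Mdh1 (SE 0.08), -0.02 for Mdh2 (SE 0.07), 0.02 for Dlat (SE 0.07), -0.01 for Tpi1 (SE 0.06) and -0.0032 for Idh3g (SE 0.06). Eno1 had the opposite sign, at 0.65 (SE 0.26). The difference was larger for Pfkl, at 0.24 (SE 0.09, adjusted p = 0.303) and Ldhb at -0.19 (SE 0.08, adjusted p = 0.351). All 4 sPIA females lay above all NBC males for Pfkl, and overlapped them for Ldhb. Eno2 overlapped too, with 573 to 679 CPM in sPIA females and 646 to 693 CPM in NBC males. Without overlap 2 members were above and 4 below (14% together), against 6.13% of all genes. Other members differed more, among them Pdk4 at -0.61 (adjusted p = 0.138 in edgeR) and Gapdh at -1.13, where NBC male 4 stood apart.

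**Figure D5:**
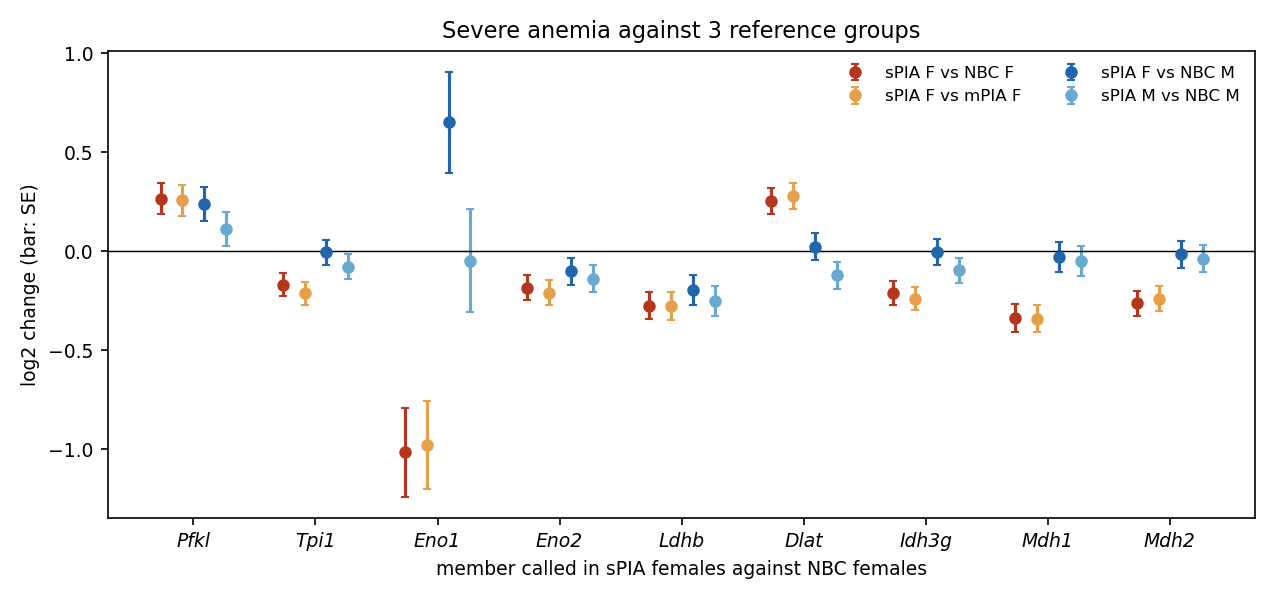
Log2 change with its SE (bars) of the 9 members that passed in sPIA females against NBC females, for sPIA females against 3 reference groups and for sPIA males against NBC males (F, females; M, males). Mdh1, Mdh2, Dlat, Idh3g and Tpi1 lie between -0.03 and 0.02 against NBC males, and Pfkl stays at 0.24.

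The neighbouring pathways were followed through 63 further genes, of which 57 were measured. In sPIA females 10 of them (17.5%) passed against NBC, 5 in each direction, where 16% of all genes passed (8.12% higher and 7.86% lower). Of the 7 genes of the NADH shuttles, which carry cytosolic electrons into mitochondria together with Mdh1 and Mdh2, 3 fell and 0 rose. Among them the mitochondrial aspartate aminotransferase Got2 had 174 ± 3.57 CPM in sPIA females and 211 ± 2.15 CPM in NBC females (SD, n = 4), a log2 change of -0.28. Sdhb, the iron-sulfur subunit of succinate dehydrogenase, was the 1 gene of 9 other TCA genes that passed, with 108 ± 6.43 against 134 ± 4.67 CPM (log2 change -0.31). Of 9 glycogen genes 2 rose, led by Ugp2, which makes UDP-glucose (log2 change 0.38). Of 7 pentose phosphate genes 1 rose, the epimerase Rpe (0.47), and 1 fell. Between sPIA females and NBC males 0 of the 57 passed by edgeR, where 0.0905% of all genes did. At an unadjusted p under 0.05 there were 3 (5.26%), against 10.3% of all genes. For the calls against NBC females, anemia, the first letter of the library code and the S number cannot be told apart. The values of these genes in other fits are not given here.

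Of these 57 genes 11 passed between sPIA and mPIA females, 6 higher and 5 lower (19.3%, against 16.1% of all genes). Between sPIA and mPIA males 7 passed, 4 higher and 3 lower (12.3%, against 4.92% of all genes, 2.13% higher and 2.8% lower). In males Idh1, the cytosolic NADPH-making isocitrate dehydrogenase, had 94.5 ± 6.22 CPM in mPIA and 119 ± 1.97 CPM in sPIA (SD, n = 4), and rose by 0.34 on the log2 scale. The malic enzymes Me1 (0.30) and Me2 (0.39) rose as well, and Ogdhl, a brain form of the alpha-ketoglutarate dehydrogenase, fell by 0.36. By edgeR 0 of the 57 passed against NBC in mPIA females, mPIA males or sPIA males, and their calls by other tools are not given here. At an unadjusted p under 0.05 there were 0 in mPIA females (0.355% of all genes), 11 in mPIA males (19.3%, against 16% of all genes) and 10 in sPIA males (17.5%, against 12.1%).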

How the data were processed

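The authors deposited whole-number read counts per gene, not normalized, for 23 libraries of polyadenylated hippocampal RNA. Per the submitters' processing notes, FastQC, TopHat2 2.0.13, Subread and edgeR were used with mouse build mm10. The sources used here do not give their roles, the annotation, the strand setting or the counting of reads that match several places. All columns were assigned to samples by their names (0 unused), and 23350 of 24421 rows (95.6%) carried a GENCODE M21 symbol. A further 27 rows named by a date held 0.328 to 0.35% of a library's counts and are not named.

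The members and the gene lists were chosen with earlier results of these data known. One edgeR quasi-likelihood fit (robust, TMM, 6 group means, all 23 libraries) was run on genes that passed filterByExpr (minimum count 10, minimum total 15), and P-values were adjusted by Benjamini-Hochberg over all genes in each comparison at 0.05. Standard errors are of the log2 change. CPM used TMM-scaled library sizes, and levels per kb the longest coding transcript. No library was treated as a copy, since replicate counts differed well beyond sampling noise (chi-square over degrees of freedom from 3 to 30.1). Values in every library are given for the members called in a comparison with NBC or of sPIA with mPIA, and, whether called or not, for Hk2, Pfkfb3, Ldha, Pdk1, Mpc1, Cs and Ogdh. Of the related genes, at most 4 called per comparison were named, by smallest p. Named outside the rule, after their values were seen, were Pdhb, Fh1, Pdk4, Gapdh, Pfkfb2, Pfkfb4, Hk1, Mpc2 and Idh3b. The comparisons of sPIA females with NBC males and with sPIA males were added after the data were seen. Alternatives were other scaling, no filter, DESeq2, limma-voom, the replicate number as a block, a GC and length trend (96.2% of genes had both values), a choroid plexus score, only the compared groups, and each library left out. The library code as a block, for NBC and mPIA females, and NBC males as controls for sPIA females were also counted among them. Counts of members under an alternative are given without the share of all genes in the same fit, so they are not read against it. The test was checked on simulated data. DESeq2 was version 1.42.0, limma 3.58.1 and edgeR 4.0.16, run in R 4.3.3. Figures used matplotlib 3.10.9 under Python 3.11.15.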

Additional observations from a re-analysis of the deposited data

Results flagged for a closer look

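In 90 sets of 4 libraries (a named member in a group), 7 held a library far from the other 3, where chance alone flags about 1 in 20. Hk2 was 15.4 CPM in sPIA male 3, against 9.97 to 10.4 CPM in the other sPIA males. Eno2 was 756 CPM in mPIA female 2, against 697 to 706 CPM in the others of its group. Mpc1 was 37.2 CPM in the same library, below 39.3 to 39.5 CPM. Pkm was 702 CPM in sPIA male 4, against 604 to 619 CPM in the other sPIA males. In NBC female 2, Ldha was 377 CPM against 339 CPM in each of the others, and Pfkfb3 was 55.2 CPM against 44.5 to 46.3 CPM. Mdh1 was 602 CPM in sPIA female 2, against 554 to 558 CPM in the other sPIA females, and still below all NBC females.

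The difference of sPIA from NBC in Dlat was not the same in the sexes, by 0.37 on the log2 scale (adjusted p = 0.0477 in edgeR). That call was lost in 10 of 15 fits that left out 1 library and under 6 of 8 other alternatives. In females this difference crosses the first letter of the code and in males it does not, so sex and code cannot be told apart. The controls differed too, with a log2 difference of -0.23 in NBC females from NBC males. Dlat was higher in all 4 sPIA females than in all NBC females, while sPIA and NBC males overlapped.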

How the results depend on the processing

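For the 18 named members, 798 of 923 values under an alternative kept their direction and side of the threshold, 122 were no longer past it, 2 newly passed (Cs in sPIA females, by DESeq2 and limma-voom) and 1 reversed past a call, Eno1 at 0.65 with NBC males as controls. Among those counted as kept, 43 changed sign without ever passing. The cause of these changes was not tested. With NBC males as controls the number of members called in sPIA females went from 9 to 0. That is a change of the control animals, their sex and their code letter, added after the data were seen, and not of the processing. Against NBC females, the split of 2 higher and 7 lower in sPIA females became 3 and 5 with RLE size factors and 3 and 3 with the GC and length trend removed. With that trend removed, sPIA against mPIA females went from 11 to 6 and their median log2 change from -0.06 to 0.01. For sPIA against mPIA males (3), DESeq2 gave 6 and a fit of only the compared groups 1, and the share of all genes in those fits is not given here. DESeq2 gave 1 for mPIA males (0 in edgeR), and on simulated data it made more false calls than edgeR. The 1 call for a sex difference of the sPIA effect became 0 with no low-count filter, limma-voom, the replicate block, the GC and length trend, the choroid plexus score or only the compared groups. NBC females against males (8) gave 5 with the replicate block, 5 with the GC and length trend, 4 with the choroid plexus score and 3 with only the compared groups.

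Leaving out 1 library at a time gave 0 to 2 called members for mPIA males, 0 to 2 for sPIA males, 6 to 8 for sPIA females, 8 to 10 for sPIA against mPIA females, 2 to 7 for sPIA against mPIA males, 0 to 1 for the sex difference of the sPIA effect and 2 to 8 for NBC females against males. It gave 0 throughout for mPIA females and for the sex difference of the mPIA effect. The share of all genes called in these fits is not given here, so the counts are not read as a result about the members.

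Over all groups together, replicate numbers did not pair the libraries. Same-numbered libraries of different groups correlated at -0.279 to 0.149 over 55 pairs (median 0.00743, 6 over 0.1), and 7 of 23 correlated best with their own number. In NBC and mPIA females, same-numbered libraries also share the number that begins their code. Those pairs correlated at 0.108, 0.0358, 0.116 and 0.149, the last being the highest of all pairs. With the replicate number as a block, sPIA females gave 8 members. Depth limits Eno1 most, with as few as 22 counts in a library.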
